A study of Homo sapiens with 8 samples.

Results

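The 8 genes described here make or remove lipid signals derived from arachidonic acid: PTGS1, PTGS2, PTGES, PTGES2, PLA2G4A, HPGD, ALOX12B and LTA4H. They were chosen by name and are 8 of the 16829 genes in a table of RNA-seq read counts. RKO and SW480, 2 lines grown from human colorectal cancers, were sequenced in 4 groups of 2 libraries. RKO control cells, whose genotype is labelled as the normal control for CYP1B1, were set against RKO cells with CYP1B1 overexpression. In SW480, cells carrying a hairpin without a target (shNT) were set against cells carrying 1 directed at CYP1B1 (shCYP1B1). Both lines received lentivirus, the knockdown rests on 1 hairpin, and the labels do not say whether any group was a single clone. The labels also leave out what vector the RKO control cells received, so effects of CYP1B1 and of the vector cannot be told apart in RKO. They also do not say whether the 2 libraries of a group came from separate cultures, so every p-value reflects the spread between libraries only, and this spread may be technical. In bulk RNA of this kind, fewer cells that express a gene and less RNA per cell cannot be told apart.

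Cytosolic phospholipase A2, encoded by PLA2G4A, cuts arachidonic acid out of membrane phospholipids. The cyclooxygenases PTGS1 (constitutive in many tissues) and PTGS2 (inducible, and often raised in colorectal tumours) turn it into prostaglandin H2, which PTGES and PTGES2 can convert to prostaglandin E2. HPGD, a dehydrogenase of the normal colon lining that is often lost in colorectal cancer, begins the breakdown of prostaglandins. Lipoxygenases such as ALOX5 oxidise the same fatty acid by another route. ALOX12B belongs to this family and acts mainly in the skin barrier. LTA4H, a hydrolase, makes leukotriene B4 from the product of ALOX5. CYP1B1, the cytochrome P450 altered in the study, is itself able to oxidise arachidonic acid.

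The windows before the start sites of 5 of these genes are shown: the 4 that passed the test within a line (PTGES2, PLA2G4A, ALOX12B and LTA4H) and PTGS2, which lay close to zero. All 8 genes were matched by symbol in RefSeq's promoter table on GRCh38.p14. Each run below is the 250 bases upstream of the first listed start, written 5′ to 3′ on the gene's own strand, with capitals marking matches on either strand to any of 5 motifs. The PTGS2 window lies at chr1:186680424-186680673 (minus strand), PTGES2 at chr9:128128441-128128690 (minus strand), PLA2G4A at chr1:186828699-186828948 (plus strand), ALOX12B at chr17:8087717-8087966 (minus strand) and LTA4H at chr12:96035588-96035837 (minus strand).
PTGS2: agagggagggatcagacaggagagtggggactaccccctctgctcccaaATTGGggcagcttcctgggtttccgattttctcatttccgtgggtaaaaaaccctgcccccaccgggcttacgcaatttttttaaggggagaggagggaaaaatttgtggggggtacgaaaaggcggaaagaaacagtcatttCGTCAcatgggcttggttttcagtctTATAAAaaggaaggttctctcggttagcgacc
PTGES2: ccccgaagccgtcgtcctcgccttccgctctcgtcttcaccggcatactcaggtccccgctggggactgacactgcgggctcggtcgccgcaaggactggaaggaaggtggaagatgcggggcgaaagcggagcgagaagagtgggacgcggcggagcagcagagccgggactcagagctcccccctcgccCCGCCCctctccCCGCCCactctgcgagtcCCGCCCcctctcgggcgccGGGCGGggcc
PLA2G4A: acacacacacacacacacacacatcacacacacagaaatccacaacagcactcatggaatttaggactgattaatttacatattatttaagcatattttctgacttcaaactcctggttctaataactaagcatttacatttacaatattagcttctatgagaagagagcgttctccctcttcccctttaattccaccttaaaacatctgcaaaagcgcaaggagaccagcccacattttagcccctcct
ALOX12B: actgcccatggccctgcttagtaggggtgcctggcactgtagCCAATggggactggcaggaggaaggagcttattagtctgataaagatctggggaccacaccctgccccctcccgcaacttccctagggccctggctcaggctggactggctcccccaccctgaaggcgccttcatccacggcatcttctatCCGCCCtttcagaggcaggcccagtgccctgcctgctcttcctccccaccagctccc
LTA4H: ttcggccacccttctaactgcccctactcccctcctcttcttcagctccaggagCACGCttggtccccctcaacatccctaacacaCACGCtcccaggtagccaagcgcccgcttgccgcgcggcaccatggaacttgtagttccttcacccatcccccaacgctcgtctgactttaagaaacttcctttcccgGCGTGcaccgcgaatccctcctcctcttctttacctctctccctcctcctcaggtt

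A motif common close before start sites was searched as TATAAA, the CCAAT box by its own letters, and the GC box, bound by SP1, as GGGCGG. The half-site of the cyclic AMP response element was searched as CGTCA, and the core of the xenobiotic response element, bound by the aryl hydrocarbon receptor, as GCGTG. The PTGS2 window held TATAAA at base -32, CGTCA at -58 and CCAAT at -201, counted from the start site. In PTGES2 there were 4 GC boxes, at -59, -47, -29 and -10, and 72.4% of the bases were G or C. PLA2G4A held none of the 5 motifs, and its G and C content was 38.8%. ALOX12B had 1 CCAAT at -208 and 1 GC box at -57. Over the 35116 windows of this length in the table, TATAAA was present in 10.7%, CCAAT in 32%, GGGCGG in 42.6%, CGTCA in 21.2% and GCGTG in 32.2%. Of the 5 windows printed, only that of LTA4H held GCGTG, at -196, -164 and -56, and no matches in the 5 overlapped. GCGTG was also present in windows not printed: in PTGES at -82, in 1 window of HPGD at -51, and in the other listed starts of PTGES2, at -147 for the second and at -138 and -43 for the third. The RefSeq start used for LTA4H, at base 96035587, and its window lie inside the gene's GENCODE 29 interval (chr12:96000828-96043520, minus strand). The 2 annotations thus differ on where this gene starts. A match describes letters only.

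CYP1B1 followed its labels. Its normalised CPM, the count relative to the scaled library total, was 0.685 and 0.701 in RKO control, 437 and 519 with overexpression, 1.44 and 2.20 in SW480 shNT and 0.367 and 0.301 in shCYP1B1. Library totals ran from 31550173 to 34921085 counts. The RKO overexpression pair differed most within a group, with a chi-square per gene of 42.7 against 4.65 to 6.53 in the other 3 pairs. The labels give colon tissue as the source and colon cancer cells as the cell type, and the 7 colorectal epithelial markers examined summed to 250.04 to 298 CPM in the RKO libraries and to 5074 to 5735 CPM in the SW480 libraries. In RKO, KRT8, KRT18 and CDX2 made up most of that sum. Low in every RKO library were EPCAM (58 to 64 counts), KRT19 (7 to 33), CDH1 (5 to 8) and VIL1 (1 count in each control and 0 with overexpression). In SW480 knockdown KRT8 and KRT18 rose while KRT19, EPCAM, CDX2 and VIL1 fell, and in RKO only KRT8 of the 7 passed the test. Of 16 immune, endothelial and stromal markers, 15 were in the table. Their sum was 674 to 786 CPM in RKO, 26.0 and 31.6 in SW480 shNT and 54.4 and 58.5 in shCYP1B1. Most of the RKO sum was CD68, at 662 to 773 CPM in RKO and 5.36 to 24.4 in SW480. Without CD68 the order turned: 9.15 to 15.5 CPM in RKO, 20.7 and 24.8 in shNT and 31.9 and 34.0 in shCYP1B1. The T-cell marker CD3E was at 0 in every RKO library. In SW480, CD3E, CD68 and COL1A1 passed as higher with knockdown, and in RKO COL3A1 passed as higher; of these, CD3E was called in 10 of 17 and COL3A1 in 9 of 18 alternative analyses. Their part in the results that follow was not tested.

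On a scale per length, LTA4H and PTGES2 were the most abundant of the 8 messages in all 4 groups. The cyclooxygenases were the least abundant in SW480, and in RKO they shared the bottom of the range with HPGD, whose libraries overlapped those of PTGS1 at counts of 0 to 15. The authors' FPKM, which divides the count by gene length and library total, was used only to set genes side by side. LTA4H averaged 106 ± 0.596 FPKM (SD, n = 2) in RKO control and 78.1 ± 2.43 in SW480 shNT, above 96.9% and 95.1% of all genes in the table. PTGES2 averaged 90.8 ± 3.66 FPKM in RKO control and 50.9 ± 0.575 in SW480 shNT. These 2 genes changed places with CYP1B1 overexpression, where PTGES2 lay at 119 and 122 FPKM and LTA4H at 107 and 120, so that the levels overlapped.

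Below them the 2 lines had different orders. RKO control followed with PLA2G4A at 8.86 ± 1.03 FPKM, ALOX12B at 6.12 ± 0.368 and PTGES at 1.77 ± 0.134. SW480 shNT followed with PTGES at 12.6 ± 0.551 FPKM, HPGD at 4.46 ± 0.120, ALOX12B at 2.87 ± 0.369 and PLA2G4A at 1.17 ± 0.180. Neighbouring genes in these 2 lists did not overlap. With overexpression, ALOX12B (3.11 ± 0.655 FPKM) and PTGES (2.70 ± 0.859) did overlap. The order in shCYP1B1 was that of shNT, and the closest neighbours were HPGD at 3.56 and 3.99 FPKM and ALOX12B at 2.16 and 3.42, which did not overlap.

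PTGS1 and PTGS2 together reached at most 0.338 FPKM in any library, whereas PTGES and PTGES2 together lay between 40.7 and 124 FPKM.

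**Figure D1:**
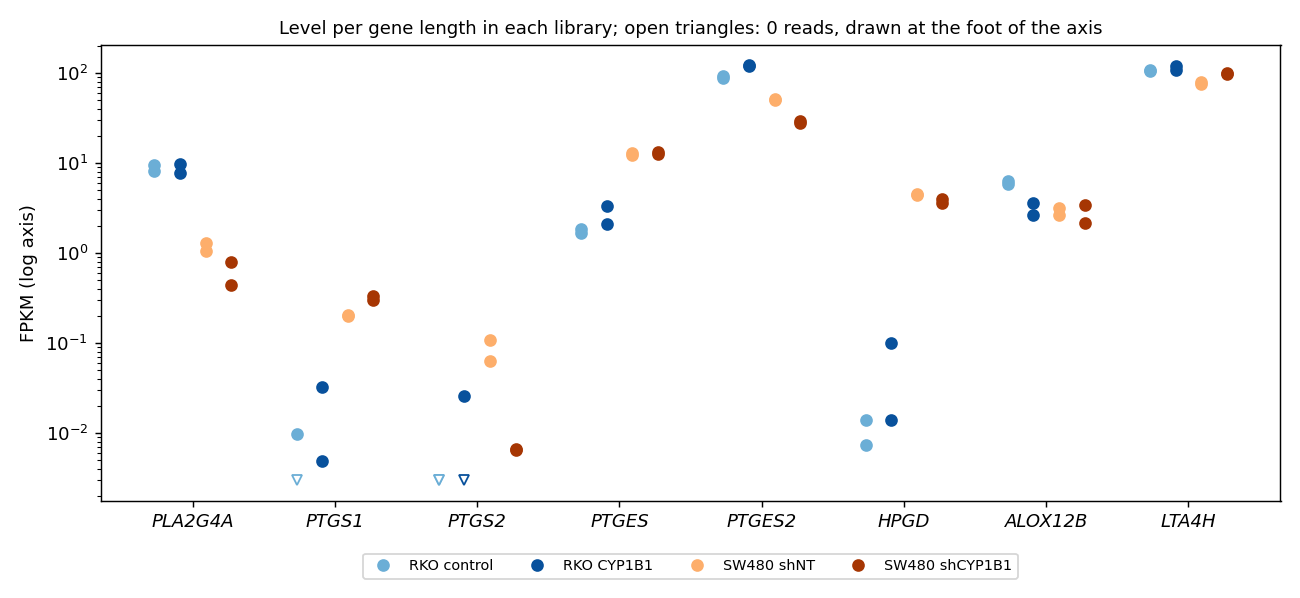
FPKM (log axis) of the 8 genes in the 4 groups, 1 point per library. LTA4H and PTGES2 lie between 28.1 and 122 FPKM everywhere, while PTGS1 and PTGS2 stay below 0.35 FPKM and HPGD and PTGES are far lower in RKO than in SW480.

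Of the 8 genes, 7 had enough counts to be tested, and PTGS2 did not. In RKO, overexpression raised 1 of the 7 (PTGES2) and lowered 1 (ALOX12B), beside 13.8% of all 14157 genes tested that were called higher and 13.8% called lower. The median log2 fold change was 0.43 over the 7 genes and 0.00 over all genes. That median includes PTGS1 (log2 1.83, RKO counts 0 to 7) and HPGD (log2 2.36, RKO counts 1 to 15). Both passed the filter through SW480, so the median is not read as a shift of the group in RKO. In SW480, knockdown raised 1 (LTA4H) and lowered 2 (PTGES2 and PLA2G4A), beside 25.3% of all genes called higher and 25.3% called lower. There the medians were 0.00 over the 7 genes and 0.00 over all genes. With 7 genes, counts of 1 and 2 are near these shares and are no result about the group as a whole.

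**Figure D2:**
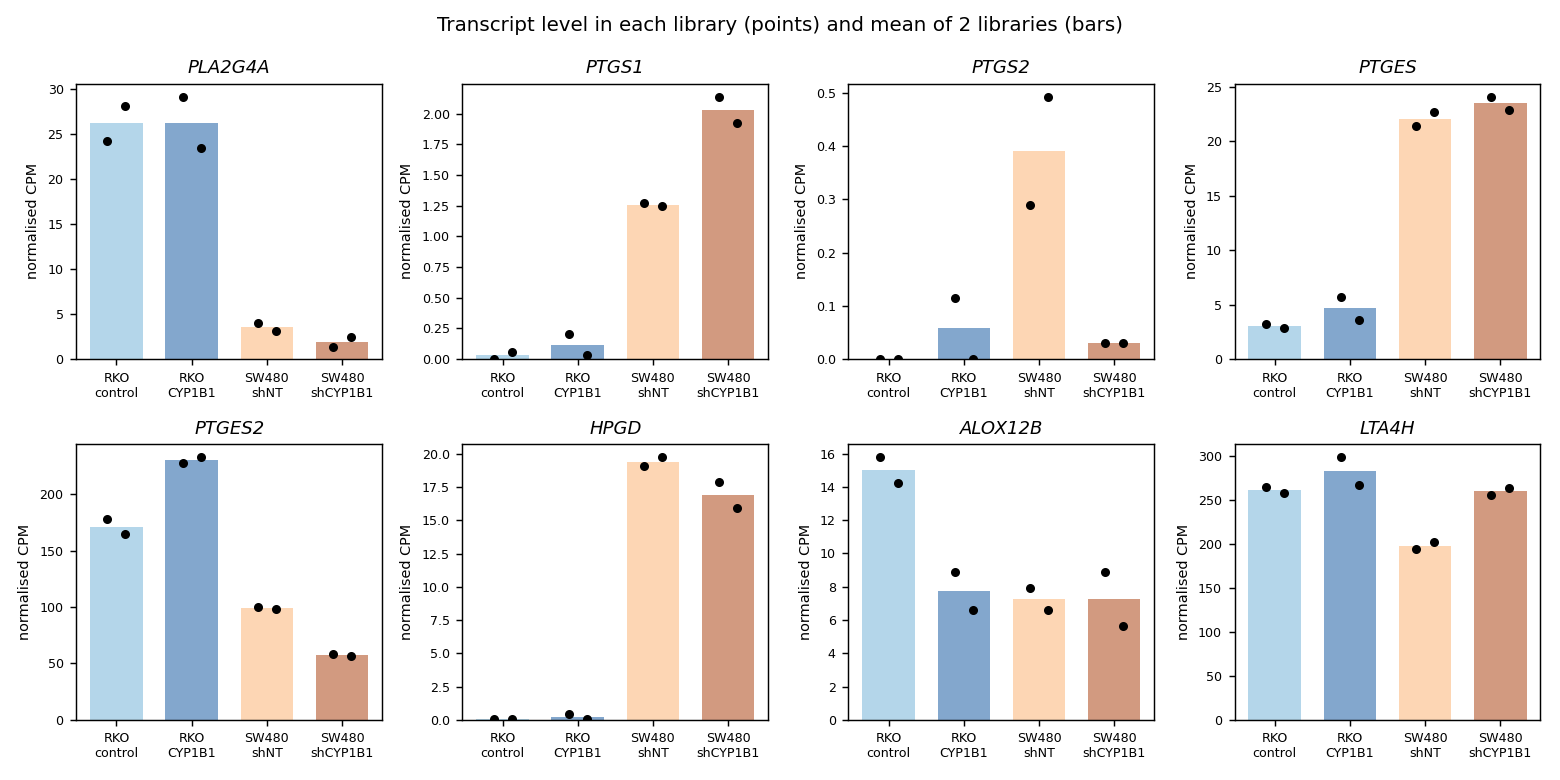
Normalised CPM of each of the 8 genes in each of the 8 libraries, by group, with an axis of its own for every gene. PTGES2 forms 4 steps that do not overlap, highest with CYP1B1 overexpression in RKO and lowest with CYP1B1 knockdown in SW480. The steps do not follow CYP1B1 between the control groups, where CYP1B1 was lower in RKO control than in SW480 shNT.

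PLA2G4A, the enzyme that frees arachidonic acid, fell with CYP1B1 knockdown in SW480 and stayed within its spread in RKO. The SW480 libraries had 3.95 and 3.16 normalised CPM with shNT and 1.37 and 2.47 with shCYP1B1. Both knockdown libraries were below both shNT libraries, but they differed from each other by more than the shNT pair did. The log2 fold change was -0.89 (SE 0.26), 1.85-fold lower, with an adjusted p of 0.0154 (edgeR, quasi-likelihood, adjusted by Benjamini and Hochberg over all genes tested; all adjusted p-values below come from this fit). That call was lost without shNT replicate 1 (log2 fold change -0.72, adjusted p 0.119) or without shCYP1B1 replicate 1 (-0.52, 0.143), and without shCYP1B1 replicate 2 the change was -1.36.

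RKO held far more PLA2G4A. Its levels were 24.2 and 28.1 CPM in control and 29.1 and 23.4 with overexpression, so the groups overlapped (log2 fold change 0.01, SE 0.20, adjusted p 1.00). RKO control exceeded SW480 shNT by 7.36-fold (log2 2.88, SE 0.23, adjusted p 2.68e-07). The gene lies at chr1:186828953-186988981 on the plus strand of GRCh38 (GENCODE 29), as a neighbour of PTGS2 at chr1:186671791-186680427 on the minus strand.

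The cyclooxygenases were barely detected in RKO. PTGS2 had 0 and 0 counts in RKO control, 4 and 0 with overexpression, 10 and 17 in SW480 shNT and 1 and 1 in shCYP1B1. Every SW480 shNT library was thus above the other 6. Pooled over the group, 2 knockdown counts stood against 27 shNT counts, a ratio of 0.0753 (95% exact interval 0.00868 to 0.30, which covers counting error only). When edgeR was run with no filter on low counts, the log2 fold change in SW480 was -3.53 (SE 1.52) with an adjusted p of 0.0895, which did not pass. In RKO control, 0 counts in both libraries were set to a floor of 3 counts over the group. Against that floor PTGS2 was 8.37-fold higher in SW480 shNT, with no allowance for counting error in the shNT counts. In 1 library, 3 counts equal 0.0859 to 0.0951 CPM at these depths. The exact 95% upper limit for a library with 0 counts was somewhat higher, at 0.112 to 0.117 CPM.

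PTGS1 was also a message of SW480 rather than RKO. Its counts were 0 and 2 in RKO control, 7 and 1 with overexpression, 44 and 43 in shNT and 70 and 64 in shCYP1B1. In RKO the groups overlapped, and the log2 fold change of 1.83 (SE 1.24, adjusted p 0.309) rests mainly on the 7 counts of 1 library. The knockdown libraries lay above the shNT libraries (2.14 and 1.92 against 1.27 and 1.25 CPM), yet the log2 fold change of 0.69 (SE 0.58) had an adjusted p of 0.343. That SE comes from an estimate of the spread shared by all 8 libraries, the RKO libraries with 0 to 7 counts included. Pooled counts gave a ratio of 1.57 (95% exact interval 1.19 to 2.08), an interval without the spread between libraries. RKO control was lower than SW480 shNT by 5.22 on the log2 scale (SE 0.94, adjusted p 3.11e-04). PTGS1 lies at chr9:122370530-122395703 on the plus strand.

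PTGES2 moved with CYP1B1 in both lines. This gene at chr9:128120693-128128462 (minus strand) encodes a membrane-associated prostaglandin E synthase. Its levels were 178 and 165 CPM in RKO control and 228 and 233 with overexpression. SW480 had 100.1 and 98.0 CPM with shNT and 58.3 and 56.4 with shCYP1B1. In both lines the libraries with more CYP1B1 message were the higher ones, without overlap. The RKO change was 1.34-fold (log2 0.43, SE 0.07, adjusted p 0.00115), and the SW480 change was 1.73-fold lower (log2 -0.79, SE 0.07, adjusted p 5.32e-06). Both calls held in all 18 alternative analyses. A call higher in RKO and lower in SW480 was shared by 3.45% of all genes tested.

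The 2 changes also differed in size, and so did those of CYP1B1 itself (log2 9.42 in RKO and -2.44 in SW480). Taken as the library group with more CYP1B1 minus the group with less, the RKO effect was smaller than the SW480 effect by a log2 difference of -0.36 (SE 0.10, adjusted p 0.0112). That difference was lost without RKO control replicate 1 (-0.31, adjusted p 0.0563) and without shCYP1B1 replicate 2 (-0.32, 0.0784). PTGES2 was also 1.73-fold higher in RKO control than in SW480 shNT (log2 0.79, SE 0.07, adjusted p 7.01e-07). CYP1B1 went the other way between these control groups, lower in RKO control (log2 -1.39, SE 0.26, adjusted p 4.66e-04).

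PTGES, the inducible prostaglandin E synthase often paired with PTGS2, lay just short of the threshold in RKO. Its levels were 3.21 and 2.83 CPM in RKO control and 5.71 and 3.62 with overexpression. Both overexpression libraries were higher, but they lay further apart than the groups' nearest values (log2 fold change 0.63, SE 0.22, adjusted p 0.0501). The estimate was 0.92 (adjusted p 6.47e-04) without overexpression replicate 2 and 0.26 (0.367) without overexpression replicate 1. With all libraries kept, PTGES passed under RLE scaling (adjusted p 0.0470), with no filter on low counts (0.0464), with a filter of 1 CPM in 4 libraries (0.0483), with DESeq2 (0.0252) and with a replicate block within each line (0.0450). It did not pass with limma on log2 FPKM (0.0724 and 0.0883 by pseudocount), so the call turns on the processing as well as on 1 library. In SW480 the values were 21.5 and 22.7 CPM with shNT and 24.1 and 22.9 with shCYP1B1 (log2 fold change 0.09, SE 0.18, adjusted p 0.701). PTGES was 7.31-fold lower in RKO control than in SW480 shNT (log2 -2.87, SE 0.21, adjusted p 1.19e-07), opposite to PTGES2. The gene lies at chr9:129738331-129753047 on the minus strand.

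HPGD, which inactivates prostaglandins, had the widest gap between the lines of the 7 tested genes (log2 -8.63 for RKO control minus SW480 shNT, SE 0.48, adjusted p 1.22e-08). RKO control had 1 and 2 counts and SW480 shNT 662 and 681, a pooled ratio of 416 in favour of SW480 (95% exact interval 142 to 2021). With overexpression, RKO had 15 and 2 counts. The log2 fold change of 2.36 (SE 0.93, adjusted p 0.0812) did not pass and rests on 1 library: it was 3.15 (adjusted p 0.00112) without overexpression replicate 2 and 0.38 (0.865) without replicate 1. In SW480 the levels were 19.1 and 19.7 CPM with shNT and 17.9 and 16.0 with shCYP1B1 (log2 fold change -0.20, SE 0.24, adjusted p 0.514). HPGD lies at chr4:174490177-174523154 on the minus strand.

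ALOX12B, a 12R-lipoxygenase known from the epidermis, fell with CYP1B1 overexpression in RKO. Its levels were 15.8 and 14.2 CPM in control and 8.86 and 6.58 with overexpression. Both overexpression libraries lay below both controls (1.94-fold lower, log2 -0.96, SE 0.23, adjusted p 0.0103). The call was lost without control replicate 1 (-0.88, adjusted p 0.0772) or control replicate 2 (-1.02, 0.0526). In SW480 the groups overlapped, with 7.93 and 6.58 CPM for shNT and 8.89 and 5.62 for shCYP1B1 (log2 fold change 0.00, SE 0.24, adjusted p 1.00). The effect of more against less CYP1B1 was lower in RKO than in SW480 by a log2 difference of -0.96 (SE 0.33, adjusted p 0.0364), and this lost its call in 5 of 17 alternatives, each leaving out 1 library. Those libraries were the 2 RKO controls, the 2 shNT libraries and shCYP1B1 replicate 2, with adjusted p-values up to 0.145. ALOX12B was 2.07-fold higher in RKO control than in SW480 shNT (adjusted p 0.00148).

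Reads at ALOX12B (chr17:8072636-8087716, minus strand) cannot be told apart from those of the antisense gene AC129492.1, because the strand setting of the counting is not given in the sources used here. For LTA4H the same holds with 2 antisense genes. PTGS1 overlaps the intronic gene AL162424.1 on its own strand, which a strand setting would not separate. ALOXE3, the epidermal lipoxygenase that acts on the product of ALOX12B, lies 8183 bp away on the same strand. Its levels fell in RKO as well, from 53.2 and 60.4 CPM to 26.6 and 15.3 (2.71-fold lower, log2 -1.44, SE 0.20, adjusted p 5.77e-04). In SW480 it stood at 5.59 and 4.96 CPM with shNT and 3.85 and 4.03 with shCYP1B1 (log2 -0.42, SE 0.25, adjusted p 0.178). Among 4 tested genes of the lipoxygenase list, 2 were called lower and 0 higher in RKO, and 0 either way in SW480. Beside them stood 13.8% of all genes each way in RKO and 25.3% each way in SW480. The rest of the list's tested genes had at most 3 counts in any RKO library.

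LTA4H, the leukotriene A4 hydrolase, rose with CYP1B1 knockdown in SW480. Its levels were 194 and 202 CPM with shNT and 256 and 264 with shCYP1B1, a 1.31-fold rise (log2 0.39, SE 0.07, adjusted p 8.73e-04) that held in all 18 alternatives. RKO had 265 and 258 CPM in control and 298 and 267 with overexpression, and this difference did not pass (log2 0.11, SE 0.07, adjusted p 0.281). Without overexpression replicate 2 it was 0.19 with an adjusted p of 0.00780. Knockdown brought SW480 to the RKO control range: the 2 shCYP1B1 libraries at 256 and 264 CPM overlap the controls at 258 and 265. Taken as more against less CYP1B1, the RKO effect exceeded the SW480 effect by 0.51 on the log2 scale (SE 0.10, adjusted p 0.00209), which kept its call in all 17 alternatives. LTA4H lies at chr12:96000828-96043520 on the minus strand.

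**Figure D3:**
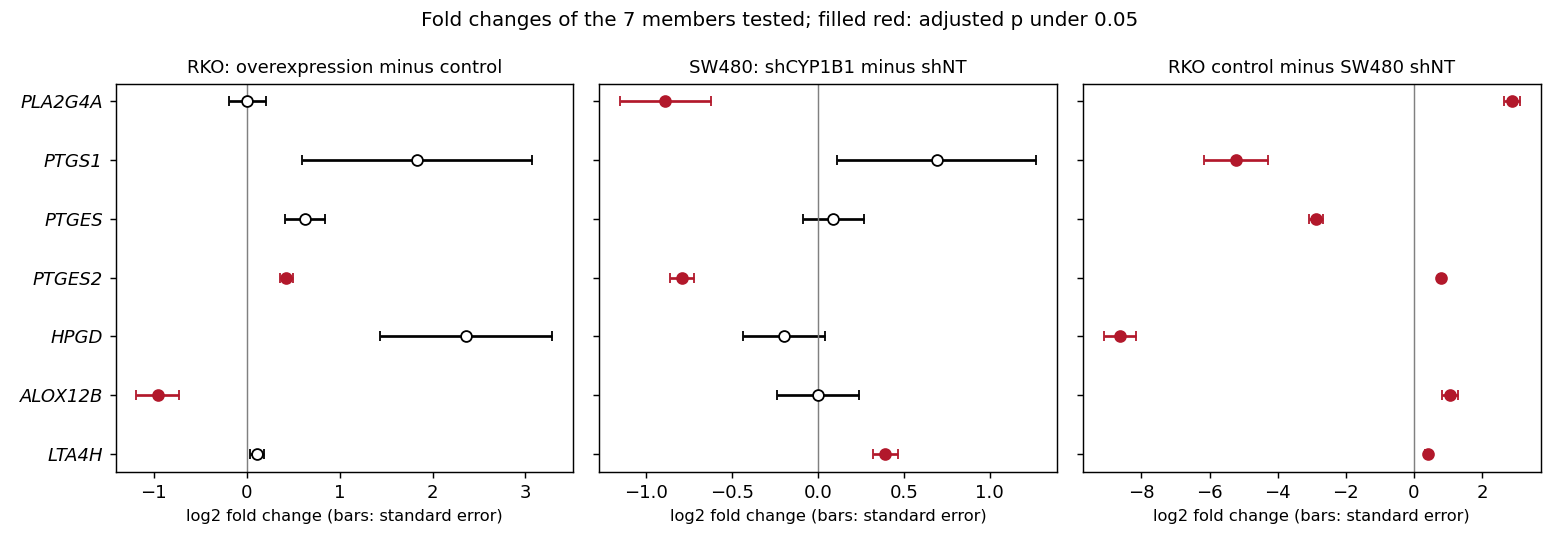
Log2 fold changes with standard errors for the tested genes in RKO (overexpression minus control), in SW480 (shCYP1B1 minus shNT) and between the control groups of the lines, with filled symbols where the adjusted p is under 0.05. PTGES2 is higher in RKO at 0.43 and lower in SW480 at -0.79, ALOX12B is called lower in RKO at -0.96, and PLA2G4A at -0.89 and LTA4H at 0.39 are called in SW480.

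For the difference between the lines, 1 of the 7 genes was called higher (LTA4H) and 2 lower (PTGES2 and ALOX12B), beside 21.0% and 21.6% of all genes. PLA2G4A, with a log2 difference of -0.88 (SE 0.33) and an adjusted p of 0.05004, lay at the threshold, and PTGES (0.72, SE 0.28, 0.0586) just short of it. For PLA2G4A the fall in SW480 alone is thus not shown to be specific to that line. Between the control groups, all 7 tested genes differed: 4 were higher in RKO (PTGES2, PLA2G4A, ALOX12B and LTA4H) and 3 lower (PTGS1, PTGES and HPGD), beside 35.6% and 41.2% of all genes. PTGS1 and HPGD passed the filter through SW480, so the filter itself favoured a lower call for them in RKO. With 7 genes, these counts are no result about the group as a whole. This comparison of lines uses the same control libraries as the comparisons within lines.

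The rest of the pathway was taken from 9 lists that hold 79 genes of the table, the 8 genes above and CYP1B1 included, of which 64 were tested. Some of the 64 passed the filter through SW480 alone. GGT5 and AKR1C3, for example, had 0 counts in every RKO library and could not be called there. The RKO counts and medians below include such genes. The counts below are to be read beside the shares of all genes tested: 13.8% higher and 13.8% lower in RKO, and 25.3% higher and 25.3% lower in SW480. In RKO 8 of the 64 rose and 10 fell, near those shares, with a median log2 fold change of 0.00, or -0.06 when genes at 0 in a group are set to their bound. In SW480 22 rose and 11 fell, with a median of 0.21. The all-gene medians were 0.00 in both lines.

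Among the phospholipases, 7 were tested, with 1 higher and 1 lower in RKO and 2 higher and 1 lower in SW480, near the shares of all genes. PLA2G15, the lysosomal phospholipase A2, rose in RKO (13.3 and 11.5 to 16.1 and 17.7 CPM, adjusted p 0.0190) and in SW480 (21.1 and 22.4 to 42.8 and 40.5 CPM, adjusted p 5.84e-05). PLA2G6, a calcium-independent phospholipase, fell in RKO by 0.72 on the log2 scale (SE 0.20, adjusted p 0.0175). In SW480 the secreted PLA2G12A rose by 0.35 (SE 0.10, adjusted p 0.0136), opposite to PLA2G4A.

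Of 5 genes that put arachidonic acid back into phospholipids, MBOAT7 rose in both lines, by 0.40 in RKO (SE 0.07, adjusted p 0.00137) and by 0.53 in SW480 (SE 0.07, adjusted p 5.89e-05). ACSL4, which activates arachidonic acid to its CoA ester, fell by 0.28 in RKO (adjusted p 0.0201). In SW480 the acyl-CoA synthetase ACSL1 rose and the acyltransferase LPCAT3 fell, the latter from 86.1 and 80.2 CPM to 52.5 and 52.3 (adjusted p 1.29e-04).

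The list of cyclooxygenases and prostanoid synthases had 11 tested genes, with 4 higher and 0 lower in RKO, and 3 higher and 1 lower in SW480. All genes had 13.8% higher in RKO and 25.3% higher in SW480, and the SW480 count is near that share. Its median log2 fold change was 0.56 in RKO and 0.33 in SW480. PTGES3, the cytosolic prostaglandin E synthase that is also the HSP90 cochaperone p23, rose in RKO from 291 and 277 to 412 and 469 CPM (log2 0.63, SE 0.07, adjusted p 2.01e-04). In SW480 it rose with knockdown from 496 and 485 to 701 and 715 CPM (log2 0.53, SE 0.07, adjusted p 1.08e-04). PTGES3 and PTGES2 therefore went the same way in RKO and opposite ways in SW480. The carbonyl reductase CBR1 rose in both lines as well (log2 0.59 and 0.33, adjusted p 2.45e-04 and 0.00205). PRXL2B, a prostaglandin F synthase, rose in RKO (log2 0.56, adjusted p 4.78e-04). AKR1C3, which makes prostaglandin F2α, rose in SW480 from 0.173 and 0.232 to 2.05 and 1.20 CPM (adjusted p 0.00642) and was at 0 in all RKO libraries.

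Prostaglandin transport and breakdown, the list that holds HPGD, had 6 tested genes. In SW480 3 reductases of this branch rose: PTGR1 by 0.86 (SE 0.10, adjusted p 3.46e-05), PTGR2 by 0.57 (SE 0.15, 0.00705) and ZADH2 by 0.60 (SE 0.09, 3.10e-04). ABCC4, a prostaglandin exporter, fell by 0.42 (SE 0.09, adjusted p 0.00183). PTGR2 fell in RKO by 0.70 (SE 0.16, adjusted p 0.00667), from 18.5 and 20.5 to 13.9 and 10.1 CPM. It was the only call among the 6 in RKO.

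Prostanoid receptors were scarce, and 5 of the 8 in the table could be tested. None was called in RKO, where 13.8% of all genes were called in each direction. In SW480 the thromboxane receptor TBXA2R fell from 1.18 and 1.71 to 0.611 and 0.601 CPM (log2 -1.25, SE 0.36, adjusted p 0.0136), and PTGER1, with 15 and 16 counts against 3 and 1, passed as lower (adjusted p 0.0321) but not with no filter on low counts (0.0977). The prostaglandin E2 receptors PTGER2 and PTGER4 stayed below 0.9 CPM in every library, and their groups overlapped in both lines.

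In the leukotriene list, 10 genes were tested, with 0 calls in RKO and 6 higher and 0 lower in SW480, where 25.3% of all genes were called each way and the median of the list was 0.32. Besides LTA4H, these were the microsomal glutathione transferase MGST3 (log2 0.62, adjusted p 4.34e-05), the gamma-glutamyl transferases GGT1 (0.90, 0.00225) and GGT5, the leukotriene exporter ABCC1 (0.24, 0.0333) and the leukotriene B4 receptor LTB4R (0.52, 0.0452). Of these 6 calls, those of ABCC1 and LTB4R each held in only 9 of 18 alternative analyses. Both were lost when edgeR scaled by library size only and with limma on log2 FPKM. GGT5, which acts on leukotriene C4, rose 7.09-fold, from 3.66 and 3.83 CPM to 27.5 and 25.6 (log2 2.83, SE 0.20, adjusted p 4.18e-06). It was at 0 in all RKO libraries, so a call in RKO was not possible. ALOX5, which makes the substrate of LTA4H, stayed at or under 0.0916 CPM in every library.

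Of the 6 cytochrome P450 and epoxide genes tested, 1 rose and 1 fell in RKO and 2 rose and 2 fell in SW480, CYP1B1 itself among them in both lines. CYP1A1, its relative in the same family, fell in RKO from 1.99 and 1.69 to 0.573 and 0.807 CPM (log2 -1.41, SE 0.30, adjusted p 0.00512). EPHX2, the soluble epoxide hydrolase, fell in SW480 from 22.3 and 24.1 to 8.10 and 12.5 CPM (log2 -1.17, SE 0.20, adjusted p 6.17e-04). The microsomal hydrolase EPHX1 and the arachidonic acid epoxygenase CYP2J2 rose there (log2 0.41 and 0.58, adjusted p 0.00580 and 0.0419).

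The list of 10 factors known to act on PTGS2 transcription or message stability was tested in full, with a median log2 fold change of -0.32 in RKO and 0.32 in SW480. In RKO ELAVL1 rose and ZFP36, CREB1, JUN and FOS fell. In SW480 ZFP36, ZFP36L1, RELA and JUN rose, and ELAVL1, CELF2 and NFKB1 fell. ELAVL1, which stabilises the PTGS2 message, was called in the same directions as PTGES2: log2 0.29 in RKO (SE 0.07, adjusted p 0.00931) and -0.20 in SW480 (SE 0.07, 0.0312). The SW480 call of ELAVL1 held in only 9 of 18 alternatives, and was lost among others with no filter on low counts (adjusted p 0.0514). ZFP36, which promotes decay of that message, went the other way in both lines: -0.81 in RKO (SE 0.18, adjusted p 0.00743) and 0.54 in SW480 (SE 0.18, 0.0279). JUN moved as ZFP36 did, from 873 and 831 to 703 and 581 CPM in RKO and from 54.0 and 53.7 to 102 and 100.4 CPM in SW480. A call lower in RKO and higher in SW480 was shared by 3.14% of all genes tested, and a call higher in both, as for PLA2G15, MBOAT7, PTGES3 and CBR1, by 4.49%. None of the pathway genes in the plot of both lines was lower in both, a call shared by 4.62% of all genes tested.

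Several of these pathway calls were lost when 1 library was left out. Such a fit leaves 1 library in a group, so a lost call need not mean that the estimate moved. Leaving out 1 SW480 library gave log2 fold changes of 0.24 to 0.26 for ABCC1, against 0.24 with all libraries. For PTGER1 it gave -3.74 to -2.24, against -2.81. Without RKO control replicate 2, the RKO calls of ACSL4, ELAVL1, FOS, PLA2G15, PLA2G6, PTGR2 and ZFP36 were lost, with adjusted p-values from 0.0673 (PTGR2) to 0.146 (ACSL4). ACSL4 (0.0690) and PLA2G6 (0.0551) were also lost without control replicate 1, and PLA2G6 without overexpression replicate 2 (0.0654). In SW480, leaving out any 1 of the 4 libraries ended the calls of ABCC1, CYP2J2, ELAVL1, LTB4R, PTGER1 and ZFP36, with adjusted p-values from 0.0621 to 0.207. AKR1C3 and PTGR2 lost theirs without shNT replicate 1 (0.0551 and 0.0567) or shCYP1B1 replicate 1 (0.0609 and 0.0740). EPHX1 did so without shNT replicate 2 (0.0580) or shCYP1B1 replicate 2 (0.0510). PLA2G12A and TBXA2R did so without shNT replicate 2 (0.111 and 0.108), shCYP1B1 replicate 1 (0.0526 and 0.0656) or shCYP1B1 replicate 2 (0.0651 and 0.0706). With RKO fitted alone in edgeR, without the spread of the SW480 libraries, further RKO calls were lost by adjusted p. These were PLA2G6 (0.0576), ELAVL1 (0.0653), CYP1A1 (0.0720), FOS (0.0756), PLA2G15 (0.0824) and ACSL4 (0.104). With all libraries kept, some SW480 calls also turned on the processing. Scaled by library size only in edgeR, ABCC1, LTB4R and CYP2J2 did not pass (adjusted p 0.0647, 0.0629 and 0.0588). With limma on log2(FPKM + 1), ABCC1 (0.0869), LTB4R (0.0634), ZFP36 (0.0757) and PLA2G12A (0.0501) did not pass. DESeq2 did not call PTGER1 (0.1445) or ELAVL1 (0.0576). The SW480 calls of LTA4H, MGST3, GGT1 and GGT5 held in every alternative run, as did the RKO calls of ALOXE3, PTGES3, CBR1, PRXL2B and MBOAT7.

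**Figure D4:**
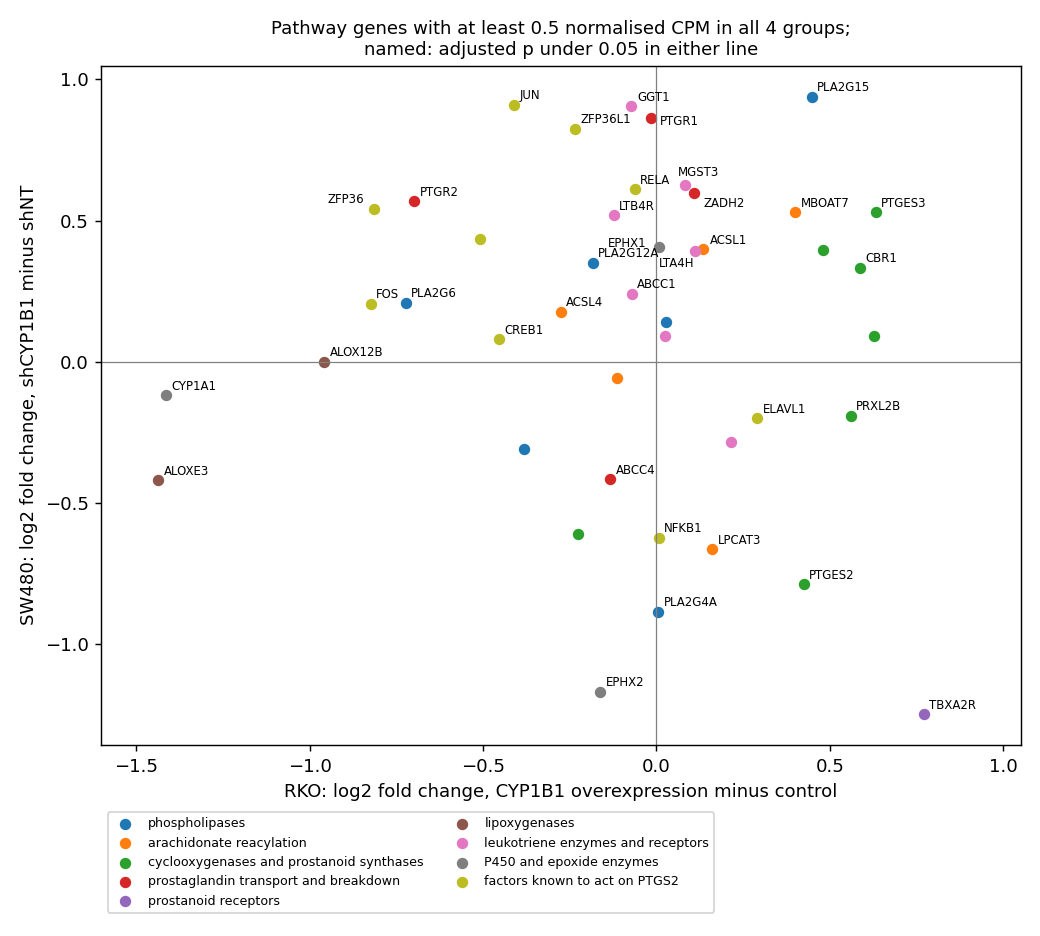
Log2 fold change in RKO (overexpression minus control, horizontal axis) against SW480 (shCYP1B1 minus shNT, vertical axis) for 44 pathway genes with at least 0.5 normalised CPM in all groups, coloured by list and named where either line passed the test. PTGES2 and ELAVL1 lie at lower right, called in both lines, and ZFP36, JUN and PTGR2 at upper left. PLA2G15, MBOAT7, PTGES3 and CBR1 lie at upper right, called higher in both lines.

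Genes whose log2 CPM ran most like each of the 7 tested genes over the 8 libraries were listed as a description. The libraries fall into 2 lines, so the correlations reflect mainly the difference between RKO and SW480, and the 8 points share groups. The closest were GINS4 (r = 0.996), SLC66A1 and CYB561D2 for PTGES2, and WDR76 (r = 0.998), PREP and DNAJC12 for PLA2G4A. PTGES ran closest to IGFBP6 (r = 0.998), TMEM132A and RPL10, HPGD to ARTN (r = 0.999), RIMS4 and LURAP1, and PTGS1 to KLC4 (r = 0.996), MICALL2 and CFAP43. LTA4H had lower values, led by PPP1CC (r = 0.986), GMPR and METRNL, and ALOX12B the lowest, led by PRELID3A (r = 0.960), ZNF225 and CCSER2.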

How the data were processed

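The authors deposited whole-number read counts per gene and FPKM values for the same 8 libraries. Reads were referred to GRCh38.p13 (per the submitters' processing notes), and libraries were made with a stranded mRNA kit, per the labels' protocols. For aligner, counter, annotation and strand setting the entry is: not given in the sources used here. Each FPKM deposited by the authors equals the count divided by 1 length per gene and by the library total.

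Counts were filtered with filterByExpr (minimum count 10, minimum total 15), which kept 14157 of 16829 genes, scaled by TMM and fitted in edgeR 4.0.16 (R 4.3.3) by quasi-likelihood with 1 coefficient per group, leaving 4 residual degrees of freedom. Adjusted p-values are Benjamini-Hochberg over the 14157 genes (threshold 0.05), and an SE is the log2 fold change over the square root of F. Exact permutation of 2 against 2 cannot go below 0.333 and was not used for single genes. Scripts were tested on simulated data. Intervals are exact Poisson-based 95% intervals and floors are 3 counts. The alternatives used RLE scaling, other filters, DESeq2 1.42.0, limma 3.58.1 on log2 FPKM, each line alone, a replicate block and leaving out each library. Likeness is Pearson's r of log2 CPM with a prior count of 2.

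The 8 genes and all lists were chosen with earlier results of these data known. Named are the 8 genes, CYP1B1, listed pathway genes called in either line with a mean of at least 1 CPM in a group, and the 3 genes most alike to each tested one of the 8. PTGER1, PTGER2, PTGER4 and ALOX5 fall outside this rule and were named after their values were seen, as was any marker gene. Motifs were searched in RefSeq windows (GRCh38.p14), and gene positions come from GENCODE 29.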

Additional observations from a re-analysis of the deposited data

Results flagged for a closer look

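For 3 of the 7 tested genes, the effect of more against less CYP1B1 differed between RKO and SW480 by the interaction term in edgeR, RKO effect minus SW480 effect. The log2 difference was -0.36 for PTGES2 (adjusted p 0.0112), which rose with more CYP1B1 message in both lines but less in RKO. It was -0.96 for ALOX12B (adjusted p 0.0364), which fell in RKO alone among its 2 tests, and 0.51 for LTA4H (adjusted p 0.00209), which rose with knockdown in SW480 and did not pass in RKO. Over all genes, 21.0% and 21.6% were called higher and lower for this term. The lines differ in the direction of the manipulation, in the size of the CYP1B1 change (log2 9.42 in RKO and -2.44 in SW480), in the vector and in their background. These cannot be told apart.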

How the results depend on the processing

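No result changed direction past a threshold. Fitted on its own line, RKO gave 1088 genes higher and 1148 lower in place of 1959 and 1948; leaving out 1 library gave 905 to 2691 higher (905 without control replicate 2) and 864 to 2930 lower. Of the 8 genes, those called higher in RKO numbered 2 under RLE scaling, with no filter or with a filter of 1 CPM in 4 libraries (PTGES joining PTGES2) and 3 with DESeq2, and 1 to 4 when 1 library was left out (4 without overexpression replicate 2). Those called lower in RKO numbered 0 to 1, and in SW480 1 to 2. In SW480 limma on log2(FPKM + 1) called 2 higher (PTGS1 joining LTA4H, adjusted p 0.0266) and limma on log2(FPKM + 0.1) called 1 (PTGS1 at 0.0616). For the difference between the lines, RLE scaling gave 2 higher, DESeq2 3, and leaving out 1 library gave 1 to 4 higher and 0 to 3 lower. The cause was not tested. The replicate numbers do not pair the libraries: deviations correlated at -0.052 in RKO and 0.000323 in SW480. With a replicate block within each line, 2 of the genes were called higher in RKO (PTGES joining PTGES2), and counts over all genes stayed at 1792 higher and 1861 lower in RKO. The same alternatives were run on the called pathway and marker genes after seeing the data. No scaling moved the median of all genes by over 0.1. The counts of PTGS2 and PTGS1, and of HPGD in RKO, are too low for small changes to be detectable.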
